A study of Homo sapiens with 12 samples.

Results

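The 54 genes described here act in the last stages of the cell cycle, from entry into mitosis to the separation of the daughter cells. They were chosen by name, and all 54 had 1 row each among the 28576 genes of the table and passed the filter on low values, which 18674 genes passed (3 or more libraries at 0.5 CPM or above; CPM are read counts scaled to 1000000 per library). Their mean over the 12 libraries lay between 25.1 and 317 CPM, so that the filter removed none of them. For description they were divided by role into 8 classes: mitotic entry (8 genes), chromosomal passenger complex (4), spindle checkpoint (5), kinetochore (12), spindle (5), cytokinesis (8), anaphase and cohesion (6), and condensin and chromosome structure (6).

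At mitotic entry, cyclin B with its kinase CDK1 is switched on by CDC25 phosphatases and drives chromosome condensation and spindle assembly. The kinetochore, a protein assembly built on centromeric chromatin, couples each chromosome to spindle microtubules. Within it the MIS12 complex (MIS12, PMF1, NSL1 and DSN1) links the centromere to KNL1 and to the NDC80 complex (NDC80, NUF2, SPC24 and SPC25), which binds the microtubule. Transcripts of many of these genes accumulate in G2 and M phase, and their promoters are known for CHR elements and CCAAT boxes, bound by the MuvB-containing complexes and NF-Y.

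RNA was measured in SHEP cells, a human neuroblastoma line, by poly(A) RNA-seq. The cells carried a MYCN-ER fusion, which 4-hydroxytamoxifen (OHT, 200 nM) activates, and a short hairpin RNA against TCEAL1 that doxycycline (Dox, 1 µg/ml) induces. Ctrl libraries came from cells given neither compound, OHT from cells with the fusion active, Dox from cells with the hairpin induced, and OHT_Dox from cells given both, with 3 libraries per group. All groups therefore carry the fusion and the hairpin construct, and an effect of OHT or Dox on cells lacking them cannot be told apart from that of the fusion or hairpin. The labels give no treatment times, do not say whether the line is 1 clone, and do not say that replicates were separate cultures, so p-values measure only the spread between these libraries, which may be technical.

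Libraries held 44466458 to 57694970 reads. TCEAL1, the hairpin's target, was at 9.11 to 10.7 CPM in Ctrl, 8.23 to 9.75 in OHT, 2.54 to 2.74 in Dox and 1.73 to 2.58 in OHT_Dox. MYCN reads, which can come from the fusion, ranged from 376 to 644 CPM over all libraries, and OHT acts on the fusion protein, so they do not check the OHT label. All 7 mesenchymal neuroblastoma markers were detected, with VIM at a mean of 2600 CPM. Of 9 adrenergic markers 4 averaged at least 0.5 CPM, and the sum of the list was 102 to 109 CPM in Ctrl, 117 to 132 in OHT, 107 to 109 in Dox and 134 to 142 in OHT_Dox, higher with OHT with no overlap of libraries. Haematopoietic markers summed to at most 1.03 CPM. Of the epithelial markers KRT8 (471 CPM) and KRT18 (633 CPM) were high and CDH1 was at 0.353 CPM. The epithelial sum was 1320 to 1450 CPM in Ctrl, 1190 to 1250 in OHT, 920 to 941 in Dox and 831 to 954 in OHT_Dox, and the mesenchymal sum was 4080 to 4370, 3910 to 4140, 3350 to 3530 and 3320 to 3550 CPM in the same order. The part of these marker changes in the results below was not tested.

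Promoter sequences of 46 of the 54 genes are given by RefSeq on GRCh38.p14, as 250 bases before to 50 after the transcription start. The genes without an entry are AURKA, BIRC5, BUB3, TTK, KNL1, TPX2, RACGAP1 and UBE2C. The windows of 5 genes are printed, chosen after their values were seen: DSN1 and NDC80, which had the largest falls with OHT in the absence of Dox, CCNB2 and SGO1, which fell and hold several elements, and KIF20A, which was higher with OHT. Capitals mark the CHR element (TTTGAA or TTCGAA), the CCAAT box (CCAAT) and the E-box (CACGTG), the last being the element that MYC family proteins with MAX bind. Both strands were searched, so that TTCAAA and ATTGG are the same elements read on the other strand. Overlapping letters were counted once for each match. The regions are chr20:36773714-36774013, minus strand, for DSN1, chr18:2571307-2571606, plus strand, for NDC80, chr15:59104896-59105195, plus strand, for CCNB2, chr3:20186157-20186456, minus strand, for SGO1, and chr5:138178862-138179161, plus strand, for KIF20A. Each spans the start site and so the first transcribed bases of the gene.
DSN1: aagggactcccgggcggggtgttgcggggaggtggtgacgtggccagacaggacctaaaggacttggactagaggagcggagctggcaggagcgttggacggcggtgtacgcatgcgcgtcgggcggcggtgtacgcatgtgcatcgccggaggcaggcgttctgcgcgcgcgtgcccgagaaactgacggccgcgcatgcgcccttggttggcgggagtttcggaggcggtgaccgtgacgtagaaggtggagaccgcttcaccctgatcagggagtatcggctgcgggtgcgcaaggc
NDC80: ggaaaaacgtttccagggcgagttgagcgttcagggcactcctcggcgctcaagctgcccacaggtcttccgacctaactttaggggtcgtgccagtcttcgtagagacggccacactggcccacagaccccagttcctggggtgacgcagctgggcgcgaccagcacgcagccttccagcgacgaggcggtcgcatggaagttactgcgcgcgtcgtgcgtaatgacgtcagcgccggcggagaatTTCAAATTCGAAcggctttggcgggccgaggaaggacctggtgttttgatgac
CCNB2: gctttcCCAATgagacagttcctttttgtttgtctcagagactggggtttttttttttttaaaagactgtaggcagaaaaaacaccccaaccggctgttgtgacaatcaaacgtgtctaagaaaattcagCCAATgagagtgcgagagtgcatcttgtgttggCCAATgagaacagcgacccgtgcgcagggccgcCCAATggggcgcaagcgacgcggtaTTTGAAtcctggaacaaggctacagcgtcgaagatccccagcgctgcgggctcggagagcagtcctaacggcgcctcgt
SGO1: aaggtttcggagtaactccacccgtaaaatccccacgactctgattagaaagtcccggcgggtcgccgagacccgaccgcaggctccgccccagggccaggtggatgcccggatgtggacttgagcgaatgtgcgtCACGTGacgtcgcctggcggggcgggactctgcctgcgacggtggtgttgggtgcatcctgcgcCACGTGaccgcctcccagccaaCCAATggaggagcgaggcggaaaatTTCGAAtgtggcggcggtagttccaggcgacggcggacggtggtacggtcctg
KIF20A: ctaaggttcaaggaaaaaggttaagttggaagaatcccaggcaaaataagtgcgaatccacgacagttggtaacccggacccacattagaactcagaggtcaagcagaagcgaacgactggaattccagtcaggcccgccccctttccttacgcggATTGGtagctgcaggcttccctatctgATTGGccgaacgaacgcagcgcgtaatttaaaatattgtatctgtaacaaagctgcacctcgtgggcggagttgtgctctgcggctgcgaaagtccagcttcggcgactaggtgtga

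The DSN1 window, with no capitals, held none of the 3 elements, as did those of KIF2C and NSL1. In NDC80 a pair of CHR elements lay next to each other across the start site. CCNB2 had 4 CCAAT boxes, beginning 244, 120, 87 and 54 bases before the start, and a CHR element beginning 29 bases before it. SGO1 had a pair of E-boxes, beginning 114 and 50 bases before the start, with a CCAAT box and a CHR element nearer to it. KIF20A had a pair of CCAAT boxes and neither TTTGAA nor TTCGAA. Other spellings of the CHR element were not searched in any window. A CHR element was present in 34 of the 46 genes (73.9%, against 19.5% of the 27305 genes with an entry), a CCAAT box in 35 (76.1% against 39.7%) and an E-box in 6 (13.0% against 8.77%). Counted by promoter, because some genes have several entries, 62.3% of the 61 promoters of these genes held a CHR element, against 16.4% of all 35116 promoters of the same length. The shares were 70.5% against 34.6% for the CCAAT box and 9.84% against 7.26% for the E-box. These are matches of letters and say nothing of binding.

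With OHT, the mitotic genes were lower in most cases, without and with the hairpin. Against Ctrl, 32 of the 54 genes fell and 2 rose in OHT (limma on log2(CPM + 0.5), Benjamini-Hochberg adjusted p below 0.05 over all genes tested), where 8.79% of all genes tested fell and 12.6% rose. In OHT_Dox against Dox, 36 fell and 1 rose, where 14.5% of all genes fell and 11.5% rose. The median log2 fold change of the 54 genes was -0.23 and -0.30 in these comparisons, beside -0.01 and -0.03 for all genes tested. All 3 OHT libraries lay below all 3 Ctrl libraries for 36 of the genes (16.7% of all genes tested), and all 3 OHT_Dox libraries below all 3 Dox libraries for 42 (23.9%). In bulk RNA, fewer cells in G2 and M phase and less RNA per such cell cannot be told apart.

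**Figure D1:**
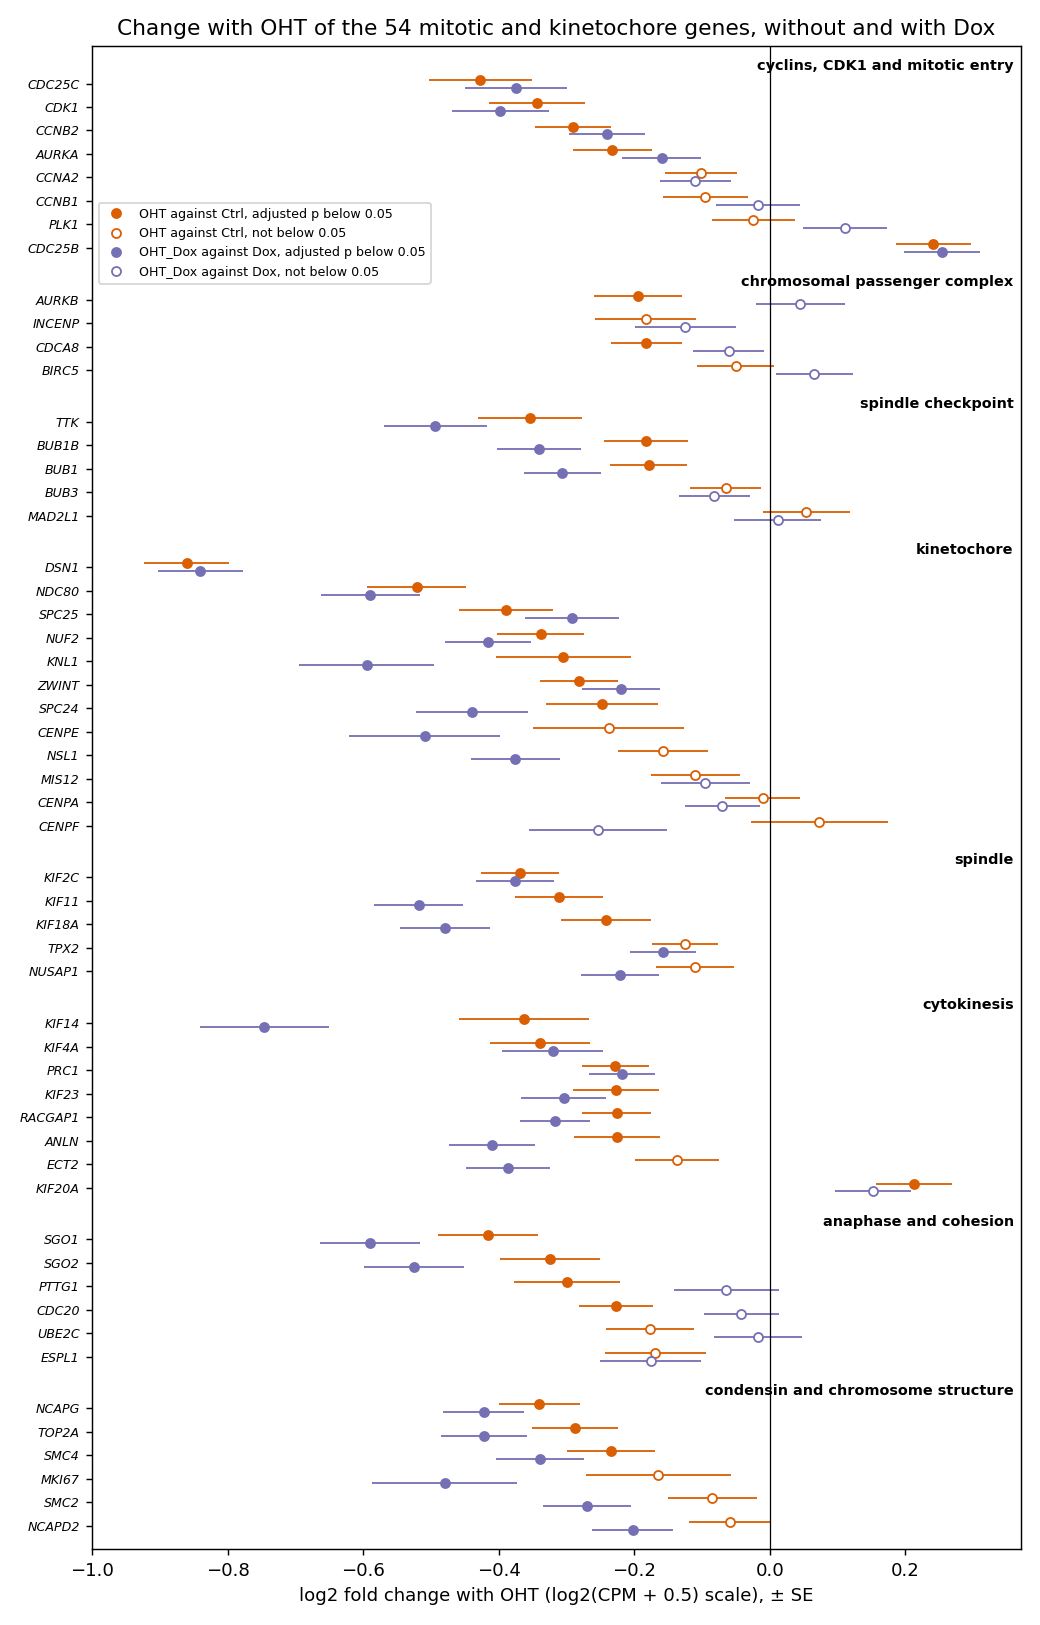
Log2 fold change with OHT ± SE (x axis, log2(CPM + 0.5) scale) of each of the 54 genes by class, for OHT against Ctrl (orange) and OHT_Dox against Dox (violet); filled points had an adjusted p below 0.05. DSN1 lies farthest left in both comparisons, and CDC25B and KIF20A lie right of 0 in both.

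The kinetochore class holds the largest fall. DSN1 (ENSG00000149636) is the MIS12 complex subunit that is phosphorylated by Aurora B to strengthen binding to the inner kinetochore. Its level was 48.1, 45.8 and 44.2 CPM in the Ctrl libraries and 24.2, 25.5 and 25.5 CPM in the OHT libraries. DSN1 was at 43.7, 44.5 and 43.4 CPM in Dox and at 23.7, 24.1 and 25.0 CPM in OHT_Dox. The 6 libraries with OHT thus lay in a narrow band below all 6 without it, whether or not the hairpin was induced. With OHT, DSN1 fell to 55.1% of Ctrl (log2 fold change -0.86 ± 0.06 SE, 95% interval -0.99 to -0.73, limma adjusted p = 8.76e-09) and to 55.8% of Dox (-0.84 ± 0.06, adjusted p = 1.29e-08). It ranked 18th by size among the 1641 genes that fell in the first comparison and 50th among the 2709 that fell in the second. The difference between both effects was 0.02 (95% interval -0.17 to 0.21, limma adjusted p = 0.94). Dox alone left DSN1 at -0.07 ± 0.06 against Ctrl (limma adjusted p = 0.526), and its own promoter window is the first of those printed.

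Relative to the Ctrl mean, DSN1 lay between -0.91 and -0.84 on the log2 scale in the OHT libraries, while the median of the other 53 genes lay between -0.24 and -0.19. In the OHT_Dox libraries DSN1 lay between -0.94 and -0.87 and the median of the others between -0.29 and -0.18. In each of these 6 libraries DSN1 was below the lowest of the others, which ranged from -0.70 to -0.48. DSN1 was singled out with its values known, so this is a description.

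Its partners in the MIS12 complex fell less or did not pass the test. PMF1 was at 0.12 ± 0.07 in OHT_Dox against Dox (limma adjusted p = 0.267), above 0 and not called. Per kb of exon length, DSN1 stood at 16.8 ± 0.715 CPM per kb in Ctrl (SD, n = 3), above NSL1 (12.6 ± 0.280) and MIS12 (9.67 ± 0.114) and below PMF1 (22.0 ± 2.0). In OHT, DSN1 stood at 9.17 ± 0.273 CPM per kb, close to MIS12 at 8.95 ± 0.281 and below NSL1 at 11.3 ± 0.496 and PMF1 at 20.4 ± 1.10. DSN1 and MIS12 levels per length do not differ beyond their SDs in OHT. NSL1 fell with OHT in the presence of Dox (log2 fold change -0.38 ± 0.07, limma adjusted p = 0.000289), and was at -0.16 ± 0.07 (adjusted p = 0.0984) in its absence. MIS12 was at -0.11 ± 0.07 and -0.09 ± 0.07, with limma adjusted p-values of 0.256 and 0.318. MIS12 is overlapped by DERL2 on the opposite strand, at a mean of 43.4 CPM beside 30.1 CPM. DERL2 was at 0.01 ± 0.07 and 0.04 ± 0.07 in these comparisons. Whether the counting used strand is not stated, so both the level and the change of MIS12 are uncertain.

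**Figure D2:**
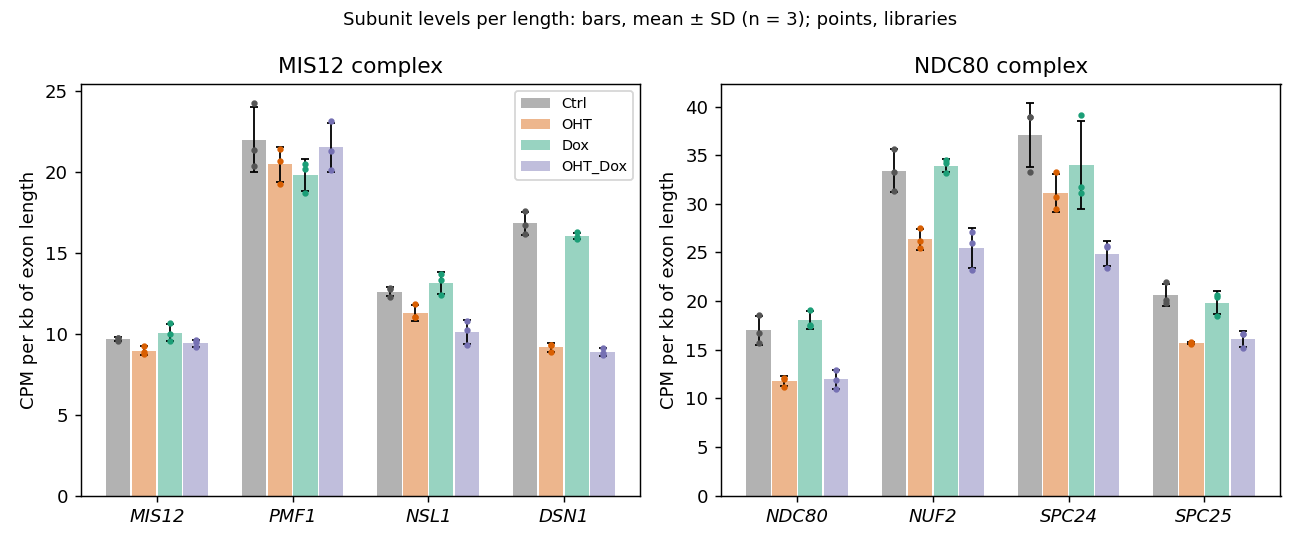
Level per exon length (y axis, CPM per kb) of the 4 subunits of the MIS12 complex and the 4 of the NDC80 complex in the 4 groups; bars are means ± SD (n = 3) and points are libraries. DSN1 falls from 16.8 to 9.17 CPM per kb between Ctrl and OHT while MIS12 goes from 9.67 to 8.95. MIS12 is overlapped by DERL2 on the opposite strand, which makes its values uncertain.

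All 4 subunits of the microtubule-binding NDC80 complex fell in both comparisons. NDC80 itself (ENSG00000080986) was at 60.1, 66.9 and 56.4 CPM in Ctrl, 40.3, 43.3 and 43.5 in OHT, 63.3, 68.6 and 62.9 in Dox and 43.0, 46.5 and 39.6 in OHT_Dox. No library with OHT reached any library without it. The log2 fold changes were -0.52 ± 0.07 (limma adjusted p = 3.15e-05) and -0.59 ± 0.07 (adjusted p = 7.20e-06). Its coiled-coil partner NUF2 changed by -0.34 ± 0.06 and -0.42 ± 0.06. SPC25, which with SPC24 anchors the complex to the MIS12 complex, changed by -0.39 ± 0.07 and -0.29 ± 0.07.

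SPC24 (ENSG00000161888) was at 111, 94.4 and 111 CPM in Ctrl, 94.5, 87.0 and 83.6 in OHT, 90.1, 88.2 and 111 in Dox and 72.9, 66.4 and 72.7 in OHT_Dox. The 3 OHT_Dox libraries were the lowest of the 12, while Ctrl and OHT overlapped. Its log2 fold change was -0.25 ± 0.08 in OHT against Ctrl (limma adjusted p = 0.0383), -0.44 ± 0.08 in OHT_Dox against Dox (adjusted p = 0.000537) and -0.32 ± 0.08 in OHT_Dox against OHT (adjusted p = 0.049). The first call was lost without Ctrl replicate 1 or 3, OHT replicate 2 or 3 or OHT_Dox replicate 1, at values of -0.25 to -0.21. The SPC24 values are uncertain, because the library kit keeps strand but whether the counting used it is not stated.

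KNL1 (ENSG00000137812), the scaffold on which checkpoint proteins gather, was at 63.5, 57.2 and 50.8 CPM in Ctrl, 49.4, 41.2 and 47.8 in OHT, 71.6, 80.3 and 67.7 in Dox and 47.9, 55.8 and 41.8 in OHT_Dox. Its libraries did not overlap between OHT and Ctrl or between OHT_Dox and Dox. The log2 fold change with OHT was -0.30 ± 0.10 without Dox (limma adjusted p = 0.0341) and -0.59 ± 0.10 with it (adjusted p = 0.000177). The first was no longer called without Ctrl replicate 1 (-0.23), Ctrl replicate 2 (-0.30), OHT replicate 2 (-0.23) or OHT replicate 3 (-0.33). ZWINT, which binds KNL1, fell in both comparisons (-0.28 ± 0.06 and -0.22 ± 0.06).

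Of the remaining kinetochore genes, CENPE, the motor that carries chromosomes to the spindle equator, fell with OHT in the presence of Dox (-0.51 ± 0.11) and was at -0.24 ± 0.11 without it (limma adjusted p = 0.142). CENPA, the centromeric histone H3 variant, was at -0.01 ± 0.06 and -0.07 ± 0.06. CENPF, a large coiled-coil protein of the outer kinetochore, was at 0.07 ± 0.10 and -0.25 ± 0.10, and neither value passed the test. Together, 7 of the 12 kinetochore genes fell in OHT against Ctrl and 9 in OHT_Dox against Dox, with none higher.

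Of the 8 genes of mitotic entry, 4 fell and 1 rose in each comparison with OHT. CDC25C (ENSG00000158402), a phosphatase that activates CDK1, was at 31.1, 32.3 and 28.8 CPM in Ctrl, 21.6, 24.8 and 21.9 in OHT, 30.9, 30.1 and 28.3 in Dox and 23.7, 23.0 and 21.9 in OHT_Dox. Every library with OHT was below every library without it. The log2 fold changes were -0.43 ± 0.08 (limma adjusted p = 0.00036) and -0.37 ± 0.08 (adjusted p = 0.00103). CDC25C overlaps FAM53C on the opposite strand, which changed the other way with OHT (0.21 ± 0.06, limma adjusted p = 0.0217, in the absence of Dox).

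CDK1, the mitotic kinase, fell by 0.34 ± 0.07 and 0.40 ± 0.07 on the log2 scale, and the B-type cyclin CCNB2 fell by 0.29 ± 0.06 and 0.24 ± 0.06. CCNB1, the other B-type cyclin of the list, was at -0.10 ± 0.06 and -0.02 ± 0.06 (limma adjusted p = 0.306 and 0.876). Cyclin A2 (CCNA2) was at -0.10 ± 0.05 and -0.11 ± 0.05, and PLK1, the polo kinase, at -0.02 ± 0.06 and 0.11 ± 0.06, none of them called. AURKA, the centrosomal Aurora kinase, fell by 0.23 ± 0.06 without Dox, a call lost without OHT replicate 1 (-0.17), and by 0.16 ± 0.06 with Dox at a limma adjusted p of 0.0494. The latter call was lost in 16 of the 24 alternative analyses, among them those without each of the 6 Dox and OHT_Dox libraries, Ctrl replicate 3 or OHT replicate 3 (-0.17 to -0.14).

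CDC25B (ENSG00000101224), the phosphatase that starts CDK1 activation, went the other way. It was at 181, 179 and 181 CPM in Ctrl, 215, 205 and 220 in OHT, 164, 175 and 180 in Dox and 202, 196 and 222 in OHT_Dox. All 6 libraries with OHT were above all 6 without it, by 0.24 ± 0.06 on the log2 scale without Dox (limma adjusted p = 0.00375) and 0.25 ± 0.06 with it (adjusted p = 0.00209). Of the 54 genes it alone was called higher in both comparisons, and KIF20A narrowly missed the call with Dox (limma adjusted p = 0.0507). In OHT_Dox against Dox, 2 of the 54 genes were called higher under TMM scaling, edgeR and DESeq2. The CDC25B call with Dox was lost in 1 of the 24 alternative analyses, that without both Dox replicate 1 and OHT_Dox replicate 3.

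**Figure D3:**
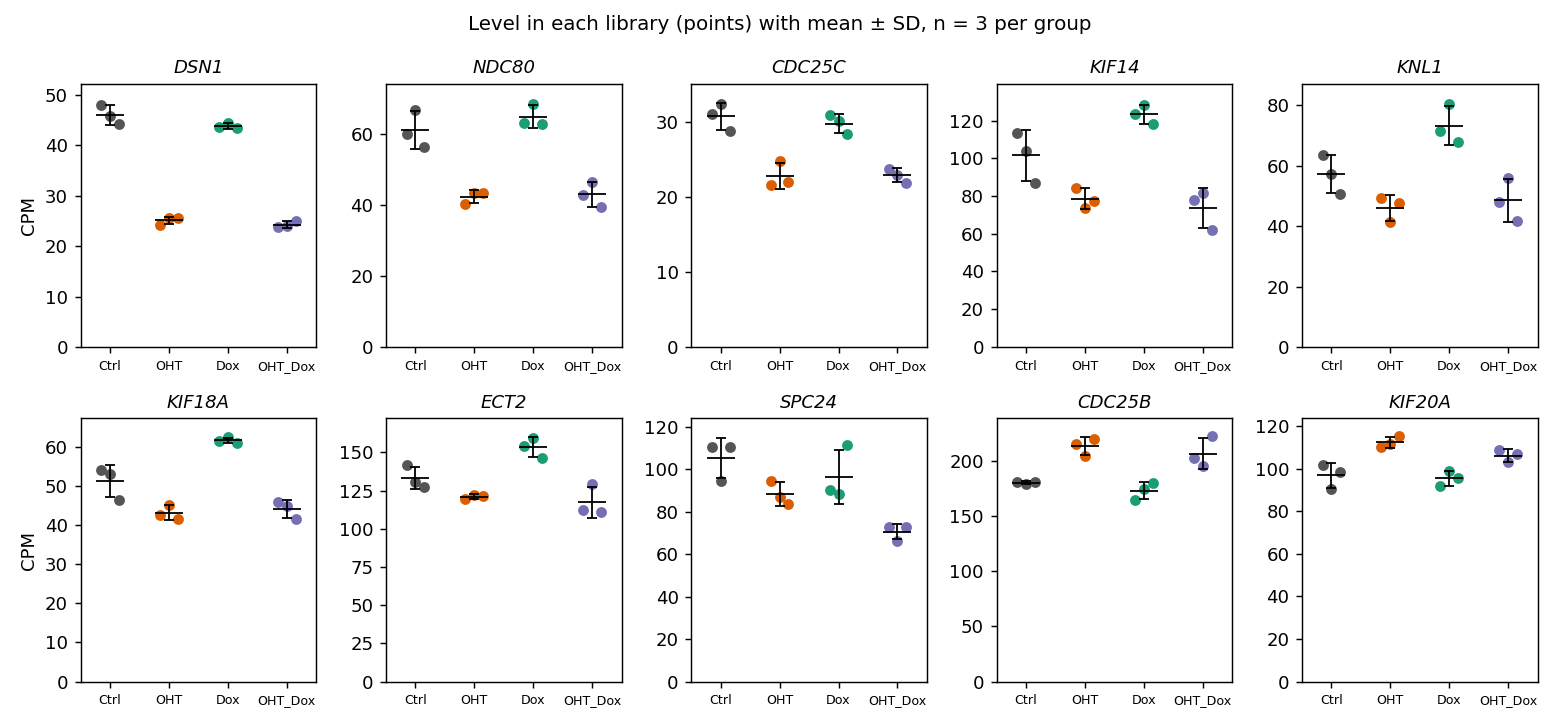
Level (y axis, CPM, from 0) of 10 genes in each library (points, replicates 1 to 3 from left to right) with the mean ± SD of each group (n = 3). DSN1, NDC80 and CDC25C separate the groups with OHT from those without, KNL1, KIF18A and ECT2 are highest in Dox, and CDC25B and KIF20A are higher with OHT.

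In the chromosomal passenger complex, which corrects faulty microtubule attachments, 2 of 4 genes fell in OHT against Ctrl and none in OHT_Dox against Dox. The kinase AURKB was at -0.19 ± 0.07 without Dox (limma adjusted p = 0.0401) and at 0.05 ± 0.07 with it (adjusted p = 0.669), and CDCA8, the borealin subunit, at -0.18 ± 0.05 (adjusted p = 0.017) and -0.06 ± 0.05 (adjusted p = 0.441). The AURKB call was lost without Ctrl replicate 2 or 3, OHT replicate 1 or 2, Dox replicate 2 or OHT_Dox replicate 1 (-0.19 to -0.17), and that of CDCA8 without OHT replicate 1 (-0.155). INCENP, the scaffold, and BIRC5, or survivin, were not called in either comparison (-0.18 and -0.12 for INCENP, -0.05 and 0.07 for BIRC5).

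Of the 5 spindle checkpoint genes, which delay anaphase until chromosomes are attached, the same 3 fell in both comparisons. The kinase TTK (MPS1) fell by 0.35 ± 0.08 and 0.49 ± 0.08, BUB1 by 0.18 ± 0.06 and 0.31 ± 0.06, and BUB1B, which encodes BUBR1, by 0.18 ± 0.06 and 0.34 ± 0.06. The calls without Dox were marginal for BUB1 and BUB1B (limma adjusted p = 0.0298 and 0.0418). BUB1 lost it without Ctrl replicate 1 or 2 or OHT replicate 1 or 2, at -0.185 to -0.145, and BUB1B in 9 of the 12 analyses that left out 1 library, among them those without each Ctrl or OHT library. BUB1B overlaps the readthrough gene BUB1B-PAK6 on the same strand. MAD2L1, the inhibitor that sequesters CDC20, was at 0.05 ± 0.06 and 0.01 ± 0.06, and BUB3 at -0.07 ± 0.05 and -0.08 ± 0.05, neither being called.

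Among the 5 spindle genes, 3 fell without Dox and all 5 with it. KIF11, the motor that pushes spindle poles apart, fell by 0.31 ± 0.07 and 0.52 ± 0.07, and KIF2C, a microtubule-depolymerizing kinesin, by 0.37 ± 0.06 and 0.38 ± 0.06. KIF2C is overlapped by an antisense transcript with a mean of 113 CPM beside its own 141 CPM. KIF18A (ENSG00000121621), which damps chromosome movements, was at 53.9, 53.1 and 46.4 CPM in Ctrl, 42.4, 45.2 and 41.6 in OHT, 61.5, 62.3 and 61.0 in Dox and 45.8, 44.8 and 41.6 in OHT_Dox. The Dox libraries were the highest and the groups with OHT the lowest. It changed with OHT by -0.24 ± 0.07 without Dox, a call lost without Ctrl replicate 2 or OHT replicate 3 (-0.21 and -0.22), and by -0.48 ± 0.07 with Dox (limma adjusted p = 2.65e-05). NUSAP1, which bundles spindle microtubules, was at -0.11 ± 0.06 and -0.22 ± 0.06, the latter called. TPX2, the activator of Aurora A, was at -0.13 ± 0.05 and -0.16 ± 0.05, and its call with Dox was lost without each Dox library and without OHT_Dox replicate 1 or 3 (-0.17 to -0.13), as well as under TMM scaling, edgeR and DESeq2.

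Of the 8 cytokinesis genes, 6 fell without Dox and 7 with it. KIF14 (ENSG00000118193), a kinesin of the midbody, was at 114, 104 and 87.0 CPM in Ctrl, 84.5, 73.6 and 77.4 in OHT, 124, 128 and 118 in Dox and 77.8, 81.8 and 61.8 in OHT_Dox. The groups with and without OHT did not overlap, and the Dox libraries were the highest of the 12. The log2 fold changes were -0.36 ± 0.10 (limma adjusted p = 0.00974) and -0.75 ± 0.10 (adjusted p = 1.02e-05), the second being the largest fall of the 54 genes after that of DSN1. PRC1, the bundler of central spindle microtubules, fell by 0.23 ± 0.05 and 0.22 ± 0.05, KIF4A by 0.34 ± 0.07 and 0.32 ± 0.07, and RACGAP1 of the centralspindlin complex by 0.23 ± 0.05 and 0.32 ± 0.05. KIF23, its kinesin partner, changed by -0.23 ± 0.06 (not called without Ctrl replicate 2, -0.18) and -0.30 ± 0.06. ANLN, or anillin, changed by -0.23 ± 0.06 (not called without Ctrl replicate 1, -0.18, or OHT replicate 1, -0.21) and -0.41 ± 0.06. PRC1 is overlapped by PRC1-AS1 on the opposite strand, at a mean of 195 CPM beside 212 CPM. PRC1-AS1 changed by -0.22 ± 0.05 and -0.23 ± 0.05, close to PRC1, and whether the same reads were counted for both was not tested.

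ECT2 (ENSG00000114346), the exchange factor that activates RhoA at the cleavage furrow, was at 142, 131 and 128 CPM in Ctrl, 119, 122 and 122 in OHT, 154, 159 and 147 in Dox and 112, 129 and 111 in OHT_Dox. OHT libraries were below Ctrl and OHT_Dox libraries below Dox, without overlap. The change was -0.14 ± 0.06 without Dox (limma adjusted p = 0.128) and -0.39 ± 0.06 with it (adjusted p = 0.000115).

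KIF20A (ENSG00000112984), the kinesin MKLP2 that brings the passenger complex to the central spindle, was the second gene to rise. It was at 102, 90.5 and 98.5 CPM in Ctrl, 110, 111 and 115 in OHT, 91.9, 98.7 and 95.7 in Dox and 109, 103 and 107 in OHT_Dox. Every library with OHT was above every library without it. The change was 0.21 ± 0.06 without Dox (limma adjusted p = 0.00947), not called without Ctrl replicate 2 (0.165), and 0.15 ± 0.06 with Dox (adjusted p = 0.0507). KIF20A overlaps BRD8 and CDC23 on the opposite strand, and BRD8 changed by -0.28 ± 0.07 and -0.41 ± 0.07 in these comparisons.

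Of the 6 genes of anaphase and cohesion, 4 fell without Dox and 2 with it. The shugoshins SGO1 and SGO2, which protect centromeric cohesion, fell in both, SGO1 by 0.42 ± 0.07 and 0.59 ± 0.07 and SGO2 by 0.32 ± 0.07 and 0.53 ± 0.07. SGO1 (ENSG00000129810) was at 26.3, 29.2 and 30.1 CPM in Ctrl, 20.5, 22.0 and 21.2 in OHT, 31.0, 30.1 and 30.3 in Dox and 20.1, 21.4 and 18.8 in OHT_Dox, with all 6 libraries with OHT below the others. CDC20, the activator of the anaphase-promoting complex, was at -0.23 ± 0.05 without Dox and -0.04 ± 0.05 with it. PTTG1, or securin, was at -0.30 ± 0.08 and -0.06 ± 0.08, and its call without Dox was lost without Ctrl replicate 2 or OHT replicate 1 (both -0.22). Separase (ESPL1, -0.17 and -0.18) and the ubiquitin-conjugating enzyme UBE2C (-0.18 and -0.02) were not called.

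In the class of condensin and chromosome structure, 3 of 6 genes fell without Dox and all 6 with it. The condensin subunit NCAPG fell by 0.34 ± 0.06 and 0.42 ± 0.06, topoisomerase II alpha (TOP2A) by 0.29 ± 0.06 and 0.42 ± 0.06, and SMC4, a core condensin ATPase, by 0.23 ± 0.07 (not called without Ctrl replicate 2, -0.18) and 0.34 ± 0.07. Its partner SMC2 was at -0.08 ± 0.07 and -0.27 ± 0.07, and NCAPD2 at -0.06 ± 0.06 and -0.20 ± 0.06, with calls in the presence of Dox. The SMC2 call was lost when the trend with GC content and length was removed, and that of NCAPD2 without Dox replicate 3 or OHT_Dox replicate 2 (both -0.19). MKI67, which coats mitotic chromosomes, was at -0.16 ± 0.11 and -0.48 ± 0.11, the latter called. SMC4, at a mean of 280 CPM, is overlapped on the opposite strand by another protein-coding gene at 316 CPM and by TRIM59 at 84.0 CPM. TRIM59 changed by -0.16 ± 0.06 and -0.23 ± 0.06 in these comparisons. NCAPD2, at 314 CPM, is overlapped on the opposite strand by MRPL51 at 144 CPM, which changed by -0.23 ± 0.07 and -0.02 ± 0.07.

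**Figure D4:**
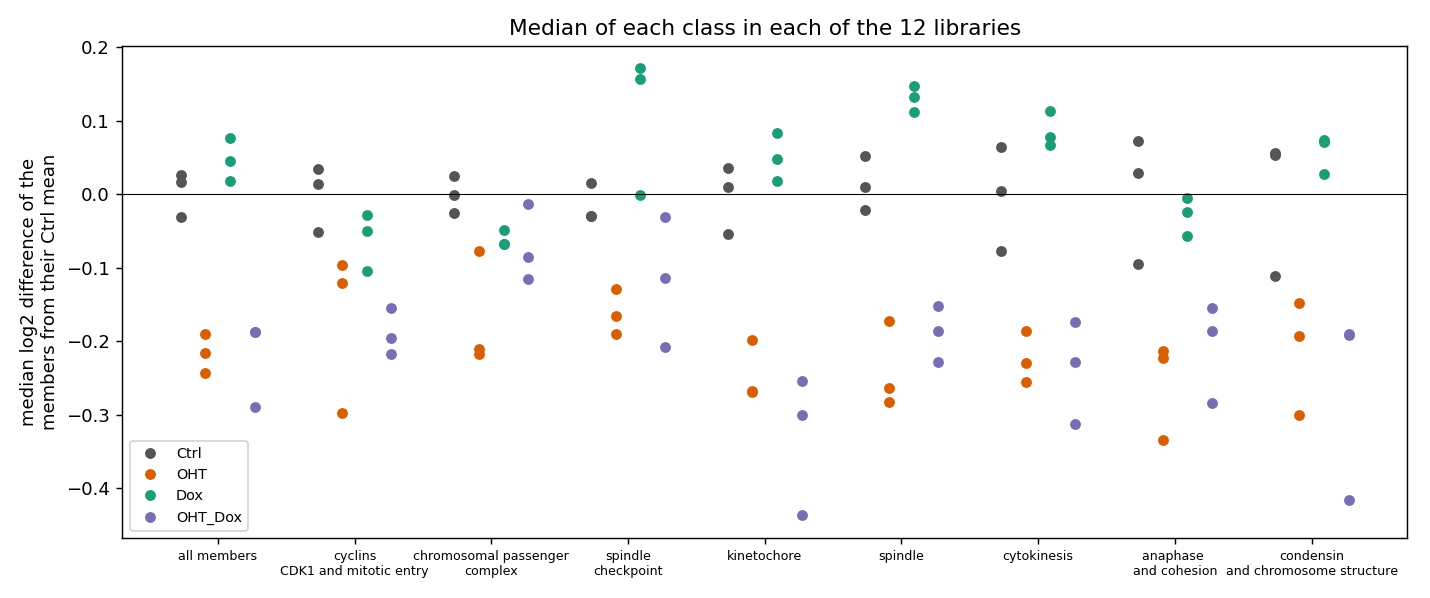
Median over the genes of each class of the log2 difference from the Ctrl mean (y axis, log2(CPM + 0.5) scale) in each of the 12 libraries, coloured by group. Over all 54 genes the libraries with OHT lie between -0.29 and -0.19, below those without OHT at -0.03 to 0.08.

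The comparisons with OHT in the absence and presence of Dox share no library, and 28 genes fell in both. Their SEs and calls do rest on 1 estimate of the spread from all 12 libraries, so the calls are not independent. Calls differed for 13 genes: AURKB, CDC20, CDCA8 and PTTG1 were called lower only without Dox, CENPE, ECT2, MKI67, NCAPD2, NSL1, NUSAP1, SMC2 and TPX2 were called lower only with Dox, and KIF20A was called higher only without it. CDC25B rose in both, and 12 genes were called in neither. The shares of all genes tested called in both or in neither are not given, so these counts have no background beside them. The sign of the change was the same for 50 of 54 genes, a count also given without the share of all genes tested. Across genes, which are not independent, Pearson's r between the changes was 0.77 (Spearman's rho 0.72), beside a Pearson's r of 0.69 over all genes tested. The test of the difference between the backgrounds itself called none of the 54 genes and 0% of all genes tested. Without Ctrl replicate 1, it called 272 genes higher and 769 lower over all genes tested, with 1 of the 54, KIF14, lower. Unadjusted p was below 0.05 for 9 of the 54 (16.7%), close to the 15.4% of all genes tested, and edgeR and DESeq2 on the recovered reads called 0 of the 54. ECT2 had the smallest p, with a difference of -0.25 ± 0.09 (95% interval -0.43 to -0.07, limma adjusted p = 0.225).

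The difference was below 0, that is, a more negative change in the presence of Dox, for 35 of the 54 genes. Below 0 were also 10599 of the 18674 genes tested, so most genes outside the list went the same way. The median was -0.06 for the 54 genes beside -0.04 for all genes tested. The difference moved with GC content. The 54 genes have a median transcript GC content of 42.7%, against 48.2% for all genes tested, and a median transcript length of 3572 bases against 2831. Across the 54 genes, as a description, Spearman's rho between GC content and the difference was 0.64, beside 0.38 across all genes tested. It was 0.30 for the change with OHT in the absence of Dox and 0.62 in its presence. Over the libraries, the deviation from the gene means went with GC content at a rho between -0.35 (Dox replicate 1) and 0.46 (OHT_Dox replicate 3). With the GC and length trend of each library removed, rho for the difference was 0.28, its median was 0.02, and the calls were 39 genes lower without Dox (13.5% of all genes tested) and 36 with it (13.8%), with 2 higher in each. The share of GC content in the difference was not tested further.

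**Figure D5:**
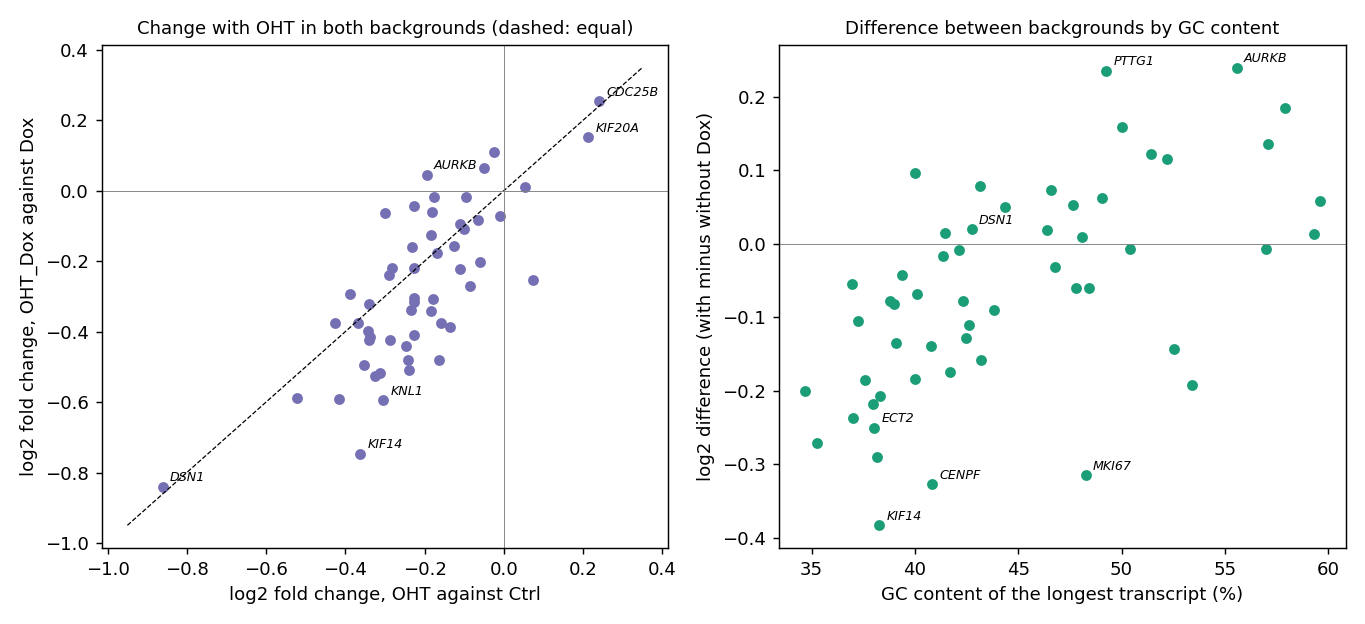
Left, log2 fold change of each of the 54 genes with OHT in the absence (x axis) and presence (y axis) of Dox, with equality dashed; right, the difference between these changes (y axis, log2) against GC content of the longest transcript (x axis, percent). DSN1 lies on the dashed line, while KIF14 and KNL1 lie below it, and the difference rises with GC content (Spearman's rho 0.64).

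Induction of the hairpin alone was followed by 3 rises and no fall among the 54 genes, where 5.68% of all genes tested rose and 2.61% fell. These background counts, 1061 and 487 genes, also rest on single libraries: they were 109 and 122 without Ctrl replicate 3, 85 and 112 without Dox replicate 2 and 2274 and 906 without Ctrl replicate 1. They came to 152 and 199 without Ctrl replicate 2, 597 and 264 without Dox replicate 1, and 392 and 217 without Dox replicate 3. The 3 were KNL1 (0.36 ± 0.10, limma adjusted p = 0.0349), KIF18A (0.27 ± 0.07, adjusted p = 0.0214) and ECT2 (0.20 ± 0.06, adjusted p = 0.0482), and for each the 3 Dox libraries lay above the 3 Ctrl libraries. All 3 calls were lost under TMM scaling, under edgeR and with the GC and length trend removed, and each was lost without Dox replicate 1 or 2 or without Ctrl replicate 3. The KNL1 call was also lost without Ctrl replicate 2, that of KIF18A without Dox replicate 3, and that of ECT2 without Ctrl replicate 2, OHT replicate 2 or 3, Dox replicate 3 or OHT_Dox replicate 1. Values over these fits were 0.28 to 0.37 for KNL1, 0.20 to 0.28 for KIF18A and 0.17 to 0.24 for ECT2. The median change of the 54 genes was 0.05, the same as for all genes tested, and it was 0.0016 under TMM scaling and -0.03 with the GC and length trend removed, so that it has no settled direction. In OHT_Dox against OHT, 1 of the 54 genes fell, SPC24, and none rose, where 1.59% of all genes fell and 0.509% rose. That call was lost in 11 of the 24 alternative analyses, among them those without each OHT library, each OHT_Dox library, Ctrl replicate 3 or Dox replicate 2, at -0.36 to -0.27. The median of the 54 genes was -0.01 in this comparison, beside 0.02 for all genes tested.

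Counts of falls are given side by side for genes with and without each promoter element, with no test of the difference. Without Dox, 22 of the 34 genes with a CHR element fell, with a median change of -0.23, and 6 of the 12 lacking it, with a median of -0.22. With Dox, 25 of 34 and 6 of 12 fell, with medians of -0.31 and -0.24. Of the 35 genes with a CCAAT box, 20 fell without Dox and 20 with it (medians -0.20 and -0.22), and of the 11 lacking it, 8 and 11 fell (medians -0.24 and -0.41). Of the 6 genes with an E-box, 2 and 3 fell (medians -0.16 and -0.33), and of the 40 lacking it, 26 and 28 (medians -0.23 and -0.31).

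A further 110 genes of mitosis and of its transcriptional control were all tested. In OHT against Ctrl 32 fell (29.1%) and 8 rose, where 8.79% of all genes tested fell and 12.6% rose. In OHT_Dox against Dox 51 fell (46.4%) and 6 rose, where 14.5% of all genes fell and 11.5% rose. The medians were -0.11 and -0.16. Of 28 other centromere and kinetochore genes, 12 fell and 2 rose without Dox, and 13 fell and 3 rose with it. CENPI, of the inner kinetochore network, fell by 0.58 ± 0.10 and 0.65 ± 0.10, SPDL1, which recruits dynein, by 0.50 ± 0.07 and 0.46 ± 0.07, and CENPQ by 0.38 ± 0.09 and 0.59 ± 0.09. CENPT, which binds the NDC80 complex from the centromere side, rose by 0.42 ± 0.07 and 0.38 ± 0.07, and CENPP by 0.20 ± 0.06 and 0.21 ± 0.06. Of 31 other spindle and centrosome genes, 12 fell and 1 rose without Dox and 17 fell and 1 rose with it. Among them the minus-end kinesin KIFC1 fell by 0.44 ± 0.06 and 0.38 ± 0.06 and STIL, needed for centriole duplication, by 0.42 ± 0.07 and 0.64 ± 0.07. ASPM, a spindle pole protein, fell by 0.68 ± 0.10 with Dox and was at -0.26 ± 0.10 without it. The augmin subunit HAUS6 rose by 0.39 ± 0.08 without Dox and HAUS7 by 0.28 ± 0.08 with it.

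Of 16 genes of the anaphase-promoting complex, 1 fell and 1 rose without Dox and 4 fell with it. The falls were 6.25% and 25.0% of the list, beside 8.79% and 14.5% of all genes tested. Without Dox, neither falls nor rises were thus above the shares of all genes, of which 12.6% rose. The activator FZR1 fell by 0.37 ± 0.07 and 0.33 ± 0.07, ANAPC1 rose by 0.26 ± 0.08 without Dox, and CDC23 fell by 0.30 ± 0.06 with it. Of 13 other condensin and cohesin genes, 2 fell (15.4%) and 1 rose without Dox and 8 fell (61.5%) with it. Sororin (CDCA5) fell by 0.26 ± 0.06, NCAPH2 fell by 0.20 ± 0.06 and the cohesin regulator PDS5A rose by 0.33 ± 0.07 without Dox, while the cohesin subunit STAG2 fell by 0.30 ± 0.08 and PDS5B by 0.26 ± 0.08 with it. Of 22 transcription factor genes of the late cell cycle, 5 fell (22.7%) and 3 rose without Dox and 9 fell (40.9%) and 2 rose with it. The rises are near the shares of all genes tested, 12.6% and 11.5%. The atypical repressor E2F8 fell by 0.74 ± 0.07 and 0.76 ± 0.07, E2F7 by 0.63 ± 0.11 with Dox only in its call (-0.15 ± 0.11 without), and LIN37, a MuvB subunit, by 0.42 ± 0.13 without Dox. E2F5 rose by 0.53 ± 0.05 and 0.44 ± 0.05, E2F3 by 0.24 ± 0.06 without Dox and E2F4 by 0.29 ± 0.06 with it. In Dox against Ctrl, 5 of the 110 genes rose and 3 fell, shares near the background of 5.68% and 2.61%. KNTC1, STIL, CDC23, CDC27 and RB1 rose by 0.26 to 0.28, and HAUS7 fell by 0.36 ± 0.08, CENPX by 0.26 ± 0.07 and CENPH by 0.25 ± 0.08. Whether these calls hold in the alternative analyses is not given. Over all genes, the calls of this comparison went from 1061 higher and 487 lower to 531 and 741 under TMM scaling. None of the 110 was called in OHT_Dox against OHT by limma, with 9 at an unadjusted p below 0.05 (8.18%, beside 13.1% of all genes tested).

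Of the 54 genes, 31 are overlapped by another annotated gene, and for 21 that gene has at least 5% of their mean CPM. DSN1 is not among the 31. Counting was not stated to use strand, so values of the 21 are less certain than those of the others.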

How the data were processed

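Poly(A) RNA-seq was made in 12 libraries of SHEP cells with a kit that keeps strand, per the labels' protocols. The deposited values are CPM, scaled by the authors to 1000000 per library. Builds hg19 and mm10 and the tools featureCounts, STAR, Bowtie, Bowtie2, FastQC and DRAGEN are listed in the submitters' processing notes, with no role for each; annotation and strand setting are not given in the sources used here. All values (100%) were whole reads within 0.01 reads, which gave back the read counts behind the CPM.

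Log2(CPM + 0.5) of the 18674 genes with at least 0.5 CPM in at least 3 libraries was fitted with limma 3.58.1 (R 4.3.3), with all 12 libraries and 4 group means in 1 fit, a trend with mean level and two-sided tests. Adjusted p-values are Benjamini-Hochberg values over the whole set of tested genes, and a call is an adjusted p below 0.05. Changes are on the log2(CPM + 0.5) scale. Alternatives used edgeR 4.0.16 and DESeq2 1.42.0 on the recovered reads, other pseudocounts, filters and scalings, a replicate block, removal of GC and length trends (a spline fit per library), and fits without each library. The method was tested on simulated data.

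The genes, the 5 further lists, the markers and the comparisons were chosen with earlier results of these data known. Values per library are given for DSN1, for the 3 genes with the largest change among those called in each pairwise comparison, and for the gene with the smallest p in the test between backgrounds; in each class the 3 called genes with the smallest p and those going the other way are named. SGO1, CDC25B and KIF20A were given per library after their values were seen, as were the promoters printed. Lengths, GC content and overlaps come from GENCODE 29 (28572 of 28576 genes matched), whose build differs from hg19, so gene coordinates are not given. Some results are not reported here. Depth was 44466458 to 57694970 reads per library.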

Additional observations from a re-analysis of the deposited data

How the results depend on the processing

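Among the 24 alternative analyses no change reversed its call. The fit without Dox replicate 1 and OHT_Dox replicate 3 and the fit combining the trend removal with the block were added after seeing the data. Calls held in all 24 for 21 of 34 genes in OHT against Ctrl, 29 of 37 in OHT_Dox against Dox, 0 of 3 in Dox against Ctrl and 0 of 1 in OHT_Dox against OHT. In OHT_Dox against Dox, the genes called higher numbered 2 with a pseudocount of 1, the CPM minimum of 1, TMM, edgeR, DESeq2, only the groups compared, the replicate block, GC and length removal, and the latter with the block; they numbered 0 without both libraries. The median there was -0.214 with GC and length removal (also with the block) and -0.222 without both libraries. In OHT_Dox against OHT, 0 genes were lower with a pseudocount of 0.1, no filter, or without both libraries. In Dox against Ctrl, 1 gene was higher with no filter, 0 with TMM, edgeR and GC and length removal (also with the block), 5 with only the groups compared and 9 with the replicate block; 1 was lower with DESeq2 and with the block. The median there was 0.00155 with TMM, 0.000585 with edgeR, 0.000489 with DESeq2 and -0.0275 with GC and length removal (also with the block), which also gave a median difference between backgrounds of 0.0195. The cause of these differences was not tested.

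Without 1 library each, 25 to 33 genes were lower and 1 to 2 higher in OHT against Ctrl (median -0.245 to -0.196), 33 to 37 and 1 to 2 in OHT_Dox against Dox (-0.327 to -0.245), 0 to 4 and 0 to 10 in Dox against Ctrl (0.0353 to 0.0685), with 4 and 10 without Ctrl replicate 1, and 0 to 1 and 0 in OHT_Dox against OHT (-0.0352 to 0.0256). For the difference between backgrounds 0 to 1 were lower and 0 higher (-0.0959 to -0.0152), the 1 being KIF14 without Ctrl replicate 1. The labels do not tie same-numbered replicates together. Their deviations correlated at -0.174 to 0.33, above 0 in 15 of 18 pairs and above 0.1 in 7, and 12 of 18 were the best match of their number, so that pairing is a hint from the data and not from the design. With the replicate block, Dox against Ctrl called 1767 genes higher and 758 lower over all genes. edgeR on the recovered reads called 2376 genes higher and 1632 lower in OHT against Ctrl. In Dox against Ctrl, scaling moved the balance of calls over all genes, from 1061 higher and 487 lower to 531 and 741 with TMM. The fewest reads of any of the 54 genes in a library were 838 (SGO1, OHT_Dox replicate 3), and the number of libraries limits what can be told of small differences.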
